A study of Mus musculus with 12 samples.

Results

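Alveolar epithelial type I (AT I) marker genes were followed in MLE-12 cells, a mouse lung line of alveolar epithelial type II (AT II) origin, as the rows of the expression table whose symbol is Aqp5, Pdpn, Ager, Hopx, Cav1, Cav2, Clic5, Akap5, Rtkn2 or Emp2. All 10 members were found among the 34745 genes of the table. RNA was sequenced in 12 libraries in 4 groups of 3, and the cells of every group were treated for 24 h. The LPS group received 100 ng/mL lipopolysaccharide, a bacterial endotoxin, in 21% oxygen, and the LPS + M2-Exo group also received 10 µg/mL M2-Exo, exosomes released by MH-S alveolar macrophages that had been turned to an M2 state with IL-4. The Hyp group was kept in 85% oxygen without LPS, and the Hyp + M2-Exo group, also exposed to 85% oxygen, was given the same dose of M2-Exo. The study's methods place the addition of M2-Exo after the LPS or hyperoxia treatment. There was no untreated group, MLE-12 is a single immortalized line, and nothing in the labels says that the 3 libraries of a group were separate experiments, so p-values measure the spread between these libraries, which may be technical.

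AT I cells are the thin, broad cells that cover most of the gas-exchange surface of the lung, and AT II cells, which make surfactant, can divide and turn into them. The members are genes by which AT I cells are commonly recognised in lung tissue, and they take part in water transport, membrane shape, adhesion and the cytoskeleton, while HOPX is a transcriptional cofactor. The study used AQP5 as its AT I marker and asked whether M2-Exo limited epithelial injury. It reported that M2-Exo improved AQP5 mRNA, measured by PCR, and AQP5 protein in cells given LPS or hyperoxia. The members thus bear on 2 comparisons of M2-Exo within a model and on 2 comparisons of LPS with hyperoxia.

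Total counts lay between 16021833 and 24074616 per library, and a count of 0 allows up to 3 counts in a library. This limit covers counting error only. Levels are given as CPM, counts scaled to a common library total with TMM factors from all 12 libraries together. Differences are log2 fold changes from edgeR's quasi-likelihood F test on the 6 libraries of each comparison, with 95% intervals, and a gene is called where its Benjamini-Hochberg adjusted p over all genes tested in that comparison was under 0.05. All 10 members passed the filter on low counts in every comparison. Of the markers that define AT II cells, Sftpc, the gene of surfactant protein C, lay between 10.5 and 23.4 CPM in the 12 libraries, whereas Sftpa1 and Sftpd, genes of other surfactant proteins, had at most 1 count in any library. The first principal component of log2 CPM held 82.1% of the variance and separated the LPS libraries from the hyperoxia libraries. LPS, the oxygen level and any separate handling of the 2 models cannot be told apart. RNA came from whole cultures, in which fewer cells of a type and less RNA per cell cannot be told apart either.

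All 10 members were detected in each of the 12 libraries. The lowest count of any member was 24, for Akap5 in a Hyp library, and the highest was 11881, for Emp2 in an LPS library. Between genes, levels were compared per length, as CPM per kilobase of the merged exons in GENCODE M21. On this scale Emp2, a tetraspan membrane protein of the epithelial surface, led in LPS with 73.5 ± 0.53 (SD, n = 3), before Cav2 with 49.6 ± 1.31, Pdpn with 45.4 ± 1.94, Aqp5 with 29.5 ± 6.56, Ager with 25.5 ± 1.77, Hopx with 21.4 ± 0.31, Cav1 with 20.1 ± 3.57, Rtkn2 with 11.9 ± 0.51, Clic5 with 6.54 ± 0.18 and Akap5 with 0.42 ± 0.020. Of the neighbours in that order, Aqp5 and Ager overlapped between libraries, as did Hopx and Cav1, while the others were separate. In Hyp the order on the same scale was Emp2 with 41.0 ± 0.60, Aqp5 with 32.9 ± 9.21, Cav2 with 21.2 ± 0.38, Pdpn with 17.3 ± 1.06, Cav1 with 14.5 ± 8.24, Clic5 with 10.9 ± 0.30, Ager with 10.2 ± 0.85, Hopx with 7.03 ± 1.36, Rtkn2 with 2.91 ± 0.23 and Akap5 with 0.30 ± 0.13. There Aqp5 overlapped Emp2, Cav1 overlapped both Pdpn and Clic5, and Clic5 overlapped Ager. The deposited FPKM rests on other gene lengths, and the length it implies was 6035 bases for Ager and 3440 bases for Emp2, against 2141 and 8644 bases of merged exons. Emp2 was highest and Akap5 lowest on both scales and in all 4 groups. On the FPKM scale, however, the mean of Clic5 stood above those of Cav2 and Pdpn in Hyp with 16.8 ± 0.45. In LPS the mean of Clic5 stood above those of Ager, Cav1 and Rtkn2 with 9.50 ± 0.27. On the scale of merged exons it stood below each of these genes in the same group. The libraries of Clic5 overlapped those of Cav2 in Hyp and of Cav1 in LPS on the FPKM scale.

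**Figure D1:**
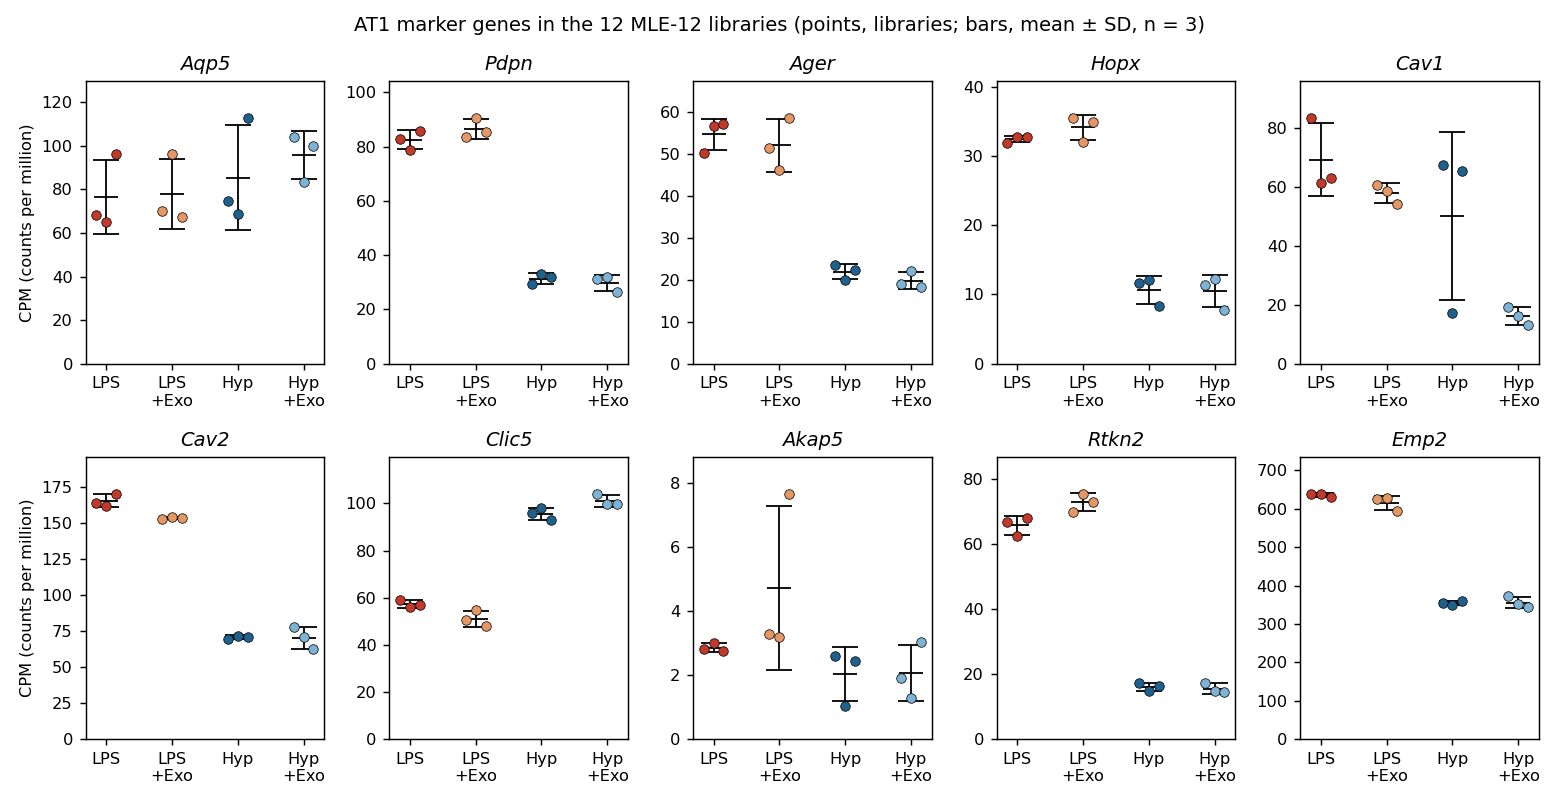
Level of each AT I marker gene in CPM (vertical axis, from 0) in the 4 groups, with a point for each library and bars for the mean ± SD (n = 3). Pdpn, Ager, Hopx, Cav2, Rtkn2 and Emp2 lie higher in both LPS groups and Clic5 lies lower, Aqp5 overlaps across the groups, and the Hyp libraries of Cav1 are split between 17.2 and 67.5 CPM.

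The larger differences lay between the 2 models. In LPS against Hyp, 6 members were called higher (Pdpn, Ager, Hopx, Cav2, Rtkn2 and Emp2), Clic5 was called lower, and Aqp5, Cav1 and Akap5 were not called. With M2-Exo in both groups, 8 members were called higher, now including Cav1 and Akap5, and Clic5 was again the member called lower. These comparisons changed most of the transcriptome. In LPS against Hyp 75.8% of all genes tested were called, 37.8% higher and 38.0% lower, and in LPS + M2-Exo against Hyp + M2-Exo 73.7% were, 36.5% higher and 37.1% lower. A count of 7 called members of 10 is thus close to the background. By direction, the 6 members called higher compare with the 37.8% of all genes. The median log2 fold change of the members was 1.03 without M2-Exo and 1.3 with it, beside medians over all genes of -0.01 in both. The libraries of the groups did not overlap for 8 of 10 members without M2-Exo and for 9 of 10 with it, against 78.7% and 77.0% of all genes. The comparisons without and with M2-Exo share no library.

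**Figure D2:**
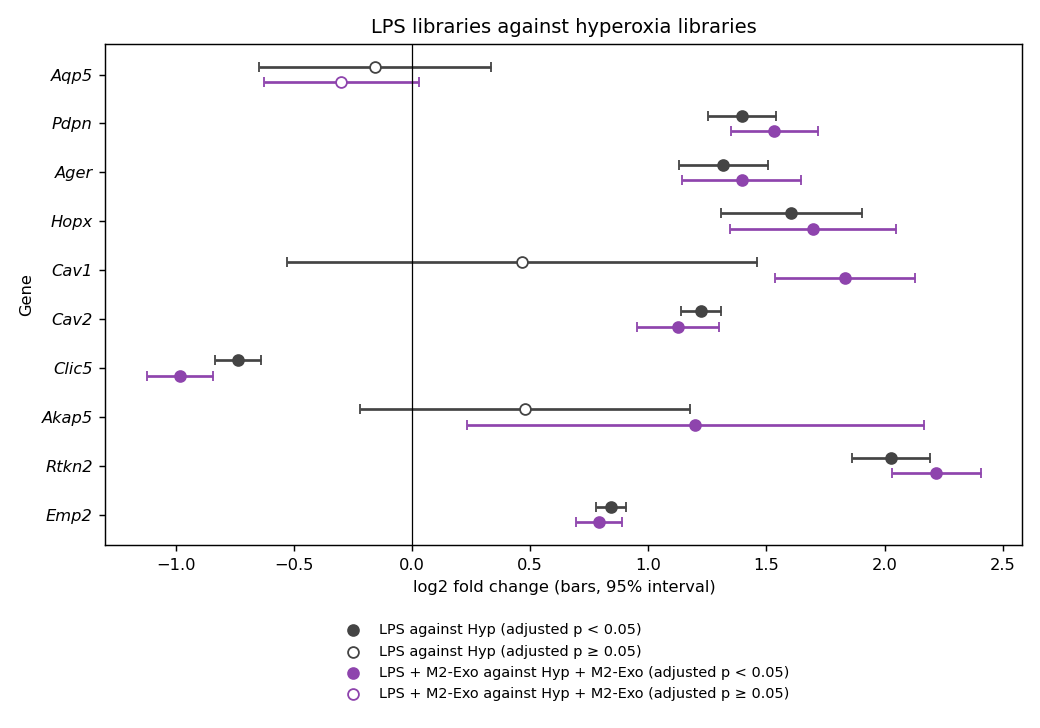
log2 fold change (horizontal axis; bars, 95% interval) of each member in LPS against Hyp and in LPS + M2-Exo against Hyp + M2-Exo. Filled points were called. Rtkn2 stands farthest to the right with 2.03 and 2.22, Clic5 is to the left with -0.74 and -0.98, and the intervals of Aqp5 include 0 in both.

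Aqp5 (ENSMUSG00000044217, chromosome 15, 99590849 to 99594829, GRCm38) encodes the apical water channel of AT I cells. Its levels were 68.4, 65.2 and 96.2 CPM in LPS, 70.0, 96.2 and 67.5 CPM in LPS + M2-Exo, 74.9, 68.6 and 113 CPM in Hyp and 104, 83.4 and 99.9 CPM in Hyp + M2-Exo. Each of the groups LPS, LPS + M2-Exo and Hyp had 1 library well above its other two, and all 4 groups overlapped. LPS against Hyp was not called (log2 fold change -0.16, 95% interval -0.65 to 0.34, edgeR adjusted p = 0.520). With M2-Exo the value was -0.30 (-0.63 to 0.028, edgeR adjusted p = 0.0881). That second value rests on the settings: it passed the threshold with DESeq2 (adjusted p = 0.0253) and without LPS + M2-Exo replicate 2 (log2 fold change -0.47, edgeR adjusted p = 0.00417), without which all LPS + M2-Exo libraries lay below those of Hyp + M2-Exo. It also passed without Hyp + M2-Exo replicate 2 (-0.40, edgeR adjusted p = 0.0433). M2-Exo gave 0.16 in the hyperoxia libraries (-0.25 to 0.57, edgeR adjusted p = 0.798) and 0.023 in the LPS libraries (-0.39 to 0.44, edgeR adjusted p = 0.981). These intervals include 0, and with this spread between libraries the changes of Aqp5 inside them are not excluded. The ratio of the highest to the lowest Hyp library was 1.65, and 1.82% of the 9767 genes with a mean of at least 200 counts spread as widely or more within Hyp.

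Pdpn (ENSMUSG00000028583, chromosome 4, 143267431 to 143299564) encodes podoplanin, a mucin-like glycoprotein of the AT I surface that binds ezrin and moesin. It measured 82.7, 78.8 and 85.9 CPM in LPS and 29.2, 33.0 and 31.9 CPM in Hyp. With M2-Exo the LPS libraries held 83.4, 90.5 and 85.4 CPM and the hyperoxia libraries 31.1, 32.0 and 26.5 CPM. The LPS and hyperoxia libraries were far apart, with log2 fold changes of 1.40 ± 0.062 (SE, edgeR adjusted p = 3.95e-07) and of 1.53 ± 0.080 with M2-Exo. M2-Exo itself gave -0.075 (95% interval -0.27 to 0.12) in hyperoxia and 0.068 (-0.050 to 0.19) in LPS, neither called.

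Ager (ENSMUSG00000015452, chromosome 17, 34597862 to 34600936) encodes RAGE, the receptor for advanced glycation end products, which is abundant on the basal side of AT I cells. Its CPM was 50.2, 56.5 and 57.1 in LPS against 23.5, 19.9 and 22.3 in Hyp, and 51.5, 46.0 and 58.6 in LPS + M2-Exo against 18.9, 22.1 and 18.4 in Hyp + M2-Exo. Every LPS library was above every hyperoxia library (log2 fold change 1.32 ± 0.081, SE, edgeR adjusted p = 2.26e-06, and 1.39 ± 0.11 with M2-Exo). With M2-Exo the level differed by -0.15 (95% interval -0.37 to 0.071) in hyperoxia and by -0.069 (-0.28 to 0.15) in LPS, and neither was called.

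Hopx (ENSMUSG00000059325, chromosome 5, 77086988 to 77115121) encodes a homeodomain protein that does not bind DNA itself and acts with serum response factor and histone deacetylases. Levels were 31.9, 32.6 and 32.7 CPM in LPS, 35.5, 32.1 and 34.8 CPM in LPS + M2-Exo, 11.6, 12.1 and 8.30 CPM in Hyp and 11.4, 12.2 and 7.81 CPM in Hyp + M2-Exo. The hyperoxia libraries were all lower, and 1 library in each hyperoxia group was lower still. LPS exceeded Hyp by 1.61 ± 0.13 (log2 fold change, SE, edgeR adjusted p = 9.93e-06) and by 1.70 ± 0.15 with M2-Exo. The M2-Exo differences were -0.024 (95% interval -0.47 to 0.43) in hyperoxia and 0.073 (-0.066 to 0.21) in LPS. An antisense gene, Hopxos, overlaps Hopx and held at most 6 counts in a library.

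Cav1 (ENSMUSG00000007655, chromosome 6, 17306335 to 17341452) and Cav2 (ENSMUSG00000000058, chromosome 6, 17281185 to 17289115) are neighbours on the same strand and encode caveolins, the coat proteins of the flask-shaped membrane pits called caveolae that are plentiful in AT I cells. Caveolin-1 can build caveolae, and caveolin-2 reaches the membrane together with it. The 250 bases before a RefSeq start site of each gene are shown because the genes lie side by side and differed in their spread. Of the 2 start sites of Cav1 the first was taken, which is where the table's gene begins, and the window of the second, chr6:17307390-17307639, held none of the motifs. The window of Clic5, the member called lower in LPS, and that of the upstream start of Hopx are shown beside them. Sequences run 5′ to 3′ on the gene's strand in GRCm38.p6, from chr6:17280935-17281184 (plus) for Cav2, chr6:17306085-17306334 (plus) for Cav1, chr17:44188322-44188571 (plus) for Clic5 and chr5:77115124-77115373 (minus) for Hopx, and capitals mark the motifs described after them.
Cav2: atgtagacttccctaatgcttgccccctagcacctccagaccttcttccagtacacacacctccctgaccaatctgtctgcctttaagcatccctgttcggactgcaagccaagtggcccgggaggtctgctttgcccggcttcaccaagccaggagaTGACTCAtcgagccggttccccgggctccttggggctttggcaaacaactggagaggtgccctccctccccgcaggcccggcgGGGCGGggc
Cav1: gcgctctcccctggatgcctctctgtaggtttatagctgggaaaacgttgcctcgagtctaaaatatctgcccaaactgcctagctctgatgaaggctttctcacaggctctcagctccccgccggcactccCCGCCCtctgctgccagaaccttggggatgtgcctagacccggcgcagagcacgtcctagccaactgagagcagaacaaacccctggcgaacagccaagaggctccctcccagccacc
Clic5: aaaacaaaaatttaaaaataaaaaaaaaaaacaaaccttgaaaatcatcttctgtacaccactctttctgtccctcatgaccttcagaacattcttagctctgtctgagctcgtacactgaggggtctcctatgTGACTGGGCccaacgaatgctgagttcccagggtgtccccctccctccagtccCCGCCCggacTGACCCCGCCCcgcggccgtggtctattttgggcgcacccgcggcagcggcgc
Hopx: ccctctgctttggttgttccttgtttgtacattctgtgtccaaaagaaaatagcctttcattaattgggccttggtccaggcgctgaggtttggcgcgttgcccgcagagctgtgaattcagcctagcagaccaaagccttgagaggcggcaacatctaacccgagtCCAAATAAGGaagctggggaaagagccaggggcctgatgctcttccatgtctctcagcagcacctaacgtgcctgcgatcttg

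On both strands, 5 motifs were searched in 11 such windows of 9 members, 2 each for Hopx and Cav1, while Rtkn2 had none in the table. GGAATG, a core of TEAD sites, was in 0 of the 11 windows (12.6% of the 32851 windows of all genes held it). TGANTCA, the AP-1 site, was found in the Cav2 window, 92 bases before the start, and in 6.75% of all windows. TGACNNNGC, the core of the antioxidant response element, was in the windows of Clic5, at 2 places, and of Emp2 (10.2% of all), and GGGCGG, the GC box of Sp1, was in 6 windows (32.7% of all), among them those of Cav2, Cav1 and Clic5. In Clic5 the second antioxidant core, 53 bases before the start, overlaps a GC box. The CArG box, the site of serum response factor, was in the windows of Hopx, 83 bases before the start, and of Ager (1.47% of all). The Aqp5 window lies largely within exons of GENCODE M21. These matches describe the letters only.

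Cav2 behaved like Pdpn and Ager. It held 164, 162 and 170.3 CPM in LPS, 153, 154 and 153 CPM in LPS + M2-Exo, 69.4, 71.9 and 70.9 CPM in Hyp and 77.9, 70.9 and 62.3 CPM in Hyp + M2-Exo. Between the models the log2 fold change was 1.22 ± 0.036 (SE, edgeR adjusted p = 6.74e-08) without M2-Exo and 1.13 ± 0.075 with it. All LPS + M2-Exo libraries lay a little below all LPS libraries (-0.11, 95% interval -0.19 to -0.029), a difference that was not called (unadjusted p = 0.0135, edgeR adjusted p = 0.319). In hyperoxia the M2-Exo difference was -0.012 (-0.19 to 0.16).

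Cav1 differed from Cav2 in its spread. It measured 83.3, 61.1 and 63.0 CPM in LPS and 60.7, 58.5 and 54.0 CPM in LPS + M2-Exo. In Hyp it measured 67.5, 17.2 and 65.2 CPM, and in Hyp + M2-Exo 19.3, 16.2 and 13.1 CPM. Hyp replicate 2 therefore sat within the range of the M2-Exo libraries and the other two within the range of the LPS libraries. The ratio of the highest to the lowest Hyp library was 3.91, which only 24 of the 9767 genes with a mean of at least 200 counts (0.246%) reached or passed in that group, whereas Cav2 in the same libraries had a ratio of 1.04. M2-Exo against Hyp gave -1.63 (95% interval -2.68 to -0.59), which was not called (unadjusted p = 0.00710, edgeR adjusted p = 0.541). Without Hyp replicate 2 it was -2.04 with an edgeR adjusted p = 0.00537, and Cav1 was then called. LPS against Hyp, which uses the same Hyp libraries, was not called (0.47, -0.53 to 1.46), while LPS + M2-Exo exceeded Hyp + M2-Exo by 1.83 ± 0.13 (SE, edgeR adjusted p = 4.66e-06). In the LPS libraries M2-Exo gave -0.26 (-0.53 to 0.0097), with all 3 treated libraries below the 3 untreated ones. An antisense gene, Gm15581, overlaps both caveolin genes and held between 3 and 13 counts per library, against at least 274 for Cav1.

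Clic5 (ENSMUSG00000023959, chromosome 17, 44188572 to 44280168) encodes a chloride intracellular channel protein that links membranes to actin through ezrin. It was the only member called lower in LPS than in Hyp, with 59.1, 56.0 and 57.1 CPM in LPS and 95.8, 98.2 and 93.0 CPM in Hyp. LPS + M2-Exo held 50.4, 54.9 and 48.2 CPM and Hyp + M2-Exo 104, 99.5 and 99.7 CPM. LPS was below Hyp by a log2 fold change of -0.74 ± 0.042 (SE, edgeR adjusted p = 1.41e-06), and LPS + M2-Exo was below Hyp + M2-Exo by -0.98 ± 0.060. All M2-Exo libraries were below the untreated ones in LPS (-0.17, 95% interval -0.30 to -0.031, edgeR adjusted p = 0.364) and above them in hyperoxia (0.075, -0.017 to 0.17, edgeR adjusted p = 0.611). The difference between those effects was -0.25 ± 0.072 (SE, unadjusted p = 0.00482, edgeR adjusted p = 0.313), which did not pass the adjustment.

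Akap5 (ENSMUSG00000021057, chromosome 12, 76324891 to 76334153) encodes a scaffold that holds protein kinase A and calcineurin together at the membrane. It was the least abundant member, with 24 to 137 counts per library. Its levels were 2.80, 3.01 and 2.75 CPM in LPS, 3.29, 3.17 and 7.65 CPM in LPS + M2-Exo, 2.60, 1.05 and 2.45 CPM in Hyp and 1.92, 1.3 and 3.02 CPM in Hyp + M2-Exo. LPS + M2-Exo replicate 3 stood apart from its group. LPS + M2-Exo against Hyp + M2-Exo was called (log2 fold change 1.20 ± 0.42, SE, edgeR adjusted p = 0.0304), but without LPS + M2-Exo replicate 3 it was 0.65 (edgeR adjusted p = 0.134), and it was also not called without Hyp + M2-Exo replicate 1 (1.14, edgeR adjusted p = 0.0800) or replicate 2 (0.95, edgeR adjusted p = 0.0914). LPS against Hyp gave 0.48 (95% interval -0.22 to 1.18). The M2-Exo difference was 0.74 in LPS (-0.065 to 1.54), which became 0.18 without that replicate, and 0.0099 in hyperoxia (-0.91 to 0.93).

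Rtkn2 (ENSMUSG00000037846, chromosome 10, 67979570 to 68059740) encodes rhotekin-2, a relative of rhotekin that binds small GTPases. It showed the largest difference of the members between the models, with 67.0, 62.7 and 68.0 CPM in LPS and 17.3, 14.8 and 16.4 CPM in Hyp. With M2-Exo the libraries held 70.1, 75.6 and 73.2 CPM in LPS and 17.5, 14.9 and 14.6 CPM in hyperoxia. The log2 fold changes were 2.03 ± 0.071 (SE, edgeR adjusted p = 1.34e-07) and 2.22 ± 0.081. Of all genes tested in LPS against Hyp, 92.6% had a smaller absolute difference. All LPS + M2-Exo libraries lay above the LPS libraries (0.15, 95% interval 0.028 to 0.27), but the difference was not called (unadjusted p = 0.0215, edgeR adjusted p = 0.360), and in hyperoxia it was -0.050 (-0.27 to 0.17).

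Emp2 (ENSMUSG00000022505, chromosome 16, 10281749 to 10313968) encodes epithelial membrane protein 2, which acts on caveolins and integrins. It had the smallest standard error of the members in every comparison, with 637, 639 and 630.2 CPM in LPS, 625, 626 and 594 CPM in LPS + M2-Exo, 353, 349.5 and 359.8 CPM in Hyp and 372, 352 and 343 CPM in Hyp + M2-Exo. LPS exceeded Hyp by 0.84 ± 0.027 (log2 fold change, SE, edgeR adjusted p = 9.01e-08) and by 0.79 ± 0.042 with M2-Exo. The interval of the M2-Exo difference was the narrowest of the members, from -0.084 to 0.082 in hyperoxia and from -0.12 to 0.026 in LPS, where all treated libraries lay below the untreated ones.

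None of the members was called with M2-Exo in either model. In Hyp + M2-Exo against Hyp 0 of 10 were called by edgeR, where 0.101% of all genes were, and in LPS + M2-Exo against LPS 0 of 10, where 0.187% were, and DESeq2 also called 0 in both. With an unadjusted p under 0.05, 1 member passed in hyperoxia (Cav1), against 8.48% of all genes, and 3 passed in LPS (Cav2 and Clic5 lower, Rtkn2 higher), against 11.1%. The medians of the 10 log2 fold changes were -0.018 in hyperoxia and -0.012 in LPS, next to -0.0021 and 0.0027 over all genes. Treated and untreated libraries did not overlap for 1 member in hyperoxia, Clic5, where 15.6% of all genes did not. In LPS they did not overlap for 6 members (Cav1, Cav2, Clic5 and Emp2 lower, Akap5 and Rtkn2 higher), beside 17.2% of all genes. Their differences ranged in size from 0.047 for Emp2 to 0.74 for Akap5. The M2-Exo effect in LPS minus that in hyperoxia, fitted as an interaction on all 12 libraries, was called for 0 of 10 members (edgeR, with 0.0352% of all genes called). With an unadjusted p under 0.05 it passed for 2, Cav1 and Clic5, against 9.78% of all genes, and Cav1 was called without Hyp replicate 2 (log2 difference 1.77, edgeR adjusted p = 0.0101). DESeq2 called 0 members for the interaction among the 9 to which it gave an adjusted p.

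**Figure D3:**
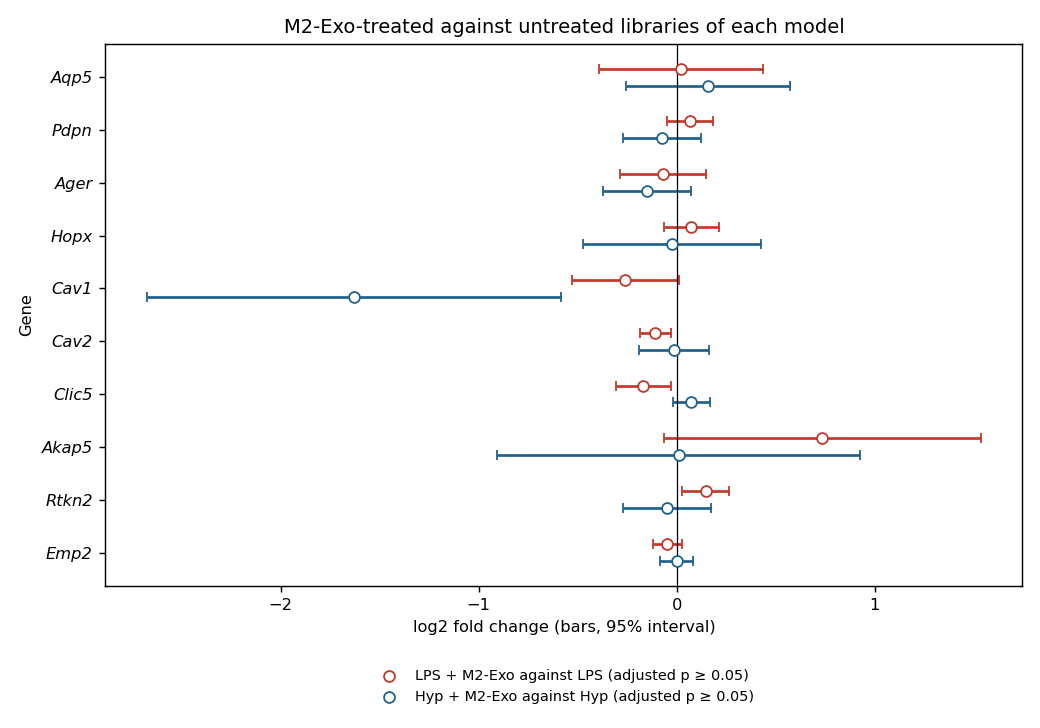
log2 fold change (horizontal axis; bars, 95% interval) of each member with M2-Exo against without it in the LPS libraries and in the hyperoxia libraries. All points are open, since none was called. Cav1 in hyperoxia stands apart at -1.63 with the widest interval, and Emp2 has the narrowest.

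Across the 12 libraries, Pdpn, Ager, Hopx, Cav2, Rtkn2 and Emp2 had Pearson correlations of log2 CPM between 0.969 and 0.996 with each other, and Clic5 had -0.983 to -0.959 with them. Cav1 reached 0.731 at most with a member (Ager), Akap5 0.658 (Rtkn2), and Aqp5 was at -0.516 (Hopx) at its lowest. The libraries fall into the 2 models, so these values are set largely by the difference between the models. By the same measure, the genes most like each member among 11017 genes with a mean of at least 50 counts were Anxa1 (0.998) and S100a10 (0.998) for Pdpn, Kmt2d (0.993) and St3gal5 (0.992) for Ager, Tspan31 (0.993) and Serpinb1a (0.991) for Hopx, Myof (0.998) and Zfp521 (0.998) for Cav2, Heg1 (0.999) and Col4a6 (0.999) for Rtkn2, and Dennd5a (0.999) and Spata13 (0.999) for Emp2. Clic5 was closest to Sat1 (0.994) and Ccdc77 (0.993). The members that split within groups had looser neighbours, namely Phlpp2 (0.914) and Ppp6r3 (0.881) for Aqp5, Med12 (0.931) and Ogdh (0.900) for Cav1, and Zfp184 (0.902) and Doc2g (0.882) for Akap5.

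The genes tested around the members, in 11 lists of further AT I genes and of partners, numbered 70 in LPS against Hyp, of which 52 were called higher and 10 lower, beside the shares of 37.8% and 38.0% over all genes in that comparison, which also stand beside the counts of the single lists that follow. Further AT I genes went the same way as most members. Of 17 such genes 15 were tested in LPS against Hyp, of which 14 were called higher and 1 lower, with a median log2 fold change of 0.79. Higher in LPS were Gprc5a, an orphan receptor gene with the highest mean FPKM of the list (0.25), the large scaffold protein gene Ahnak (0.57), the basement membrane collagen genes Col4a3 (0.78) and Col4a4 (1.20), the heparan sulfate proteoglycan gene Agrn (1.20), the insulin-like growth factor carrier gene Igfbp2 (1.85), the keratin gene Krt7 (2.66) and the laminin chain gene Lama3 (4.0), and also Spock2 (1.16), Lmo7 (0.58), Gramd2 (1.43), Ndnf (0.79), Timp3 (0.15) and Icam1 (0.50). In Hyp, Lama3 held only 3 to 4 counts per library and Spock2 5 to 18, so the size of their differences is uncertain. Vegfa, the endothelial growth factor gene, was lower (-0.23). Cldn18, a claudin gene of AT I junctions, was left out by the filter with at most 9 counts per library.

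Of 7 tested genes around the caveolins, 5 were called higher in LPS than in Hyp and 0 lower, and Pacsin2 (0.32) and Cavin4 (0.78) were not called. The 5 were Cavin1 (0.84), Cavin2 (2.84) and Cavin3 (2.02), which encode the cavin coat of caveolae, Ehd2 (1.57), which holds the caveola neck, and Pacsin3 (0.47). Cavin4, the muscle cavin, was called with M2-Exo in both groups (1.25), and Cav3, the muscle caveolin, had no counts. Of the family of Emp2, Emp3 (0.66) and Pmp22 (0.59) were higher in LPS. Emp1 gave 1.25 in LPS against Hyp, which was not called (edgeR adjusted p = 0.0645), and was called with M2-Exo in both groups (2.08). It was split within groups, as Cav1 was, with 837, 239 and 836 CPM in LPS, 263, 251 and 818 CPM in LPS + M2-Exo, 346, 345 and 115 CPM in Hyp and 121, 99.3 and 94.1 CPM in Hyp + M2-Exo. All Hyp + M2-Exo libraries were at the lower level for both genes. The low Hyp library was replicate 3 for Emp1 and replicate 2 for Cav1, and Cav1 had no such split in the LPS groups.

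YAP and TAZ, the transcriptional coactivators of the Hippo pathway that take part in AT I fate, and their TEAD partners were all higher in LPS than in Hyp: Yap1 by 0.71, Wwtr1 by 0.52, Tead1 by 0.72, Tead2 by 1.55, Tead3 by 1.06 and Tead4 by 1.25 on the log2 scale. So were Gata6 (1.63), a transcription factor gene of lung epithelium, Amotl2 (0.57) and Lats1 (0.27). Of commonly used YAP target genes, Ccn1 (-1.23), Ccn2 (-0.55) and Ankrd1 (-1.18) were lower in LPS, whereas Amotl2 was higher, as given above. Klf5, a transcription factor gene, was also lower (-3.52), but it had only 3 to 12 counts per LPS library. In all, 9 of the 14 genes of this list were called higher and 4 lower.

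The remaining partners differed between the models in mixed ways. Of the aquaporins, Aqp1 (1.78), Aqp9 (3.05) and Aqp11 (1.52) were called higher in LPS and Aqp3, like Aqp5, was not (0.29). Among podoplanin partners, Msn (0.49) and Cd9 (1.27) were higher, Rdx (-0.11) and Lgals8 (-0.36) lower, and Ezr, the gene of ezrin, and Cd44 had -0.014 and -0.016. The RAGE ligand genes Hmgb1 (1.46), S100a4 (1.75) and S100a11 (0.68) were higher and Diaph1, the gene of its signalling adaptor, was lower (-0.45), while S100a8 and S100a9 had no counts. Srf, the partner of HOPX, was lower (-0.46), with Mrtfa (0.43), Mrtfb (0.22) and Hdac2 (0.09) higher. Against Clic5, its relatives Clic1 (0.62), Clic3 (2.33) and Clic4 (0.52) were higher in LPS. For AKAP5, the kinase A and calcineurin genes Prkar2b (1.17), Prkaca (0.41), Prkacb (0.62) and Ppp3ca (1.62) were higher, Prkar2a was lower (-0.17), and Ppp3cb was called with M2-Exo in both groups (0.45). Rtkn (0.53), Rhoa (0.61), Rhob (0.24) and Rhoc (0.86) were all higher in LPS. With M2-Exo, edgeR called 0 of the 67 genes tested in these 11 lists in hyperoxia and 0 of 69 in LPS, and an unadjusted p under 0.05 was reached by 2 and by 9 of them, where 8.48% and 11.1% of all genes reached it. The largest of their M2-Exo differences was that of Emp1 in hyperoxia (-1.36), whose libraries were split as given above.

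**Figure D4:**
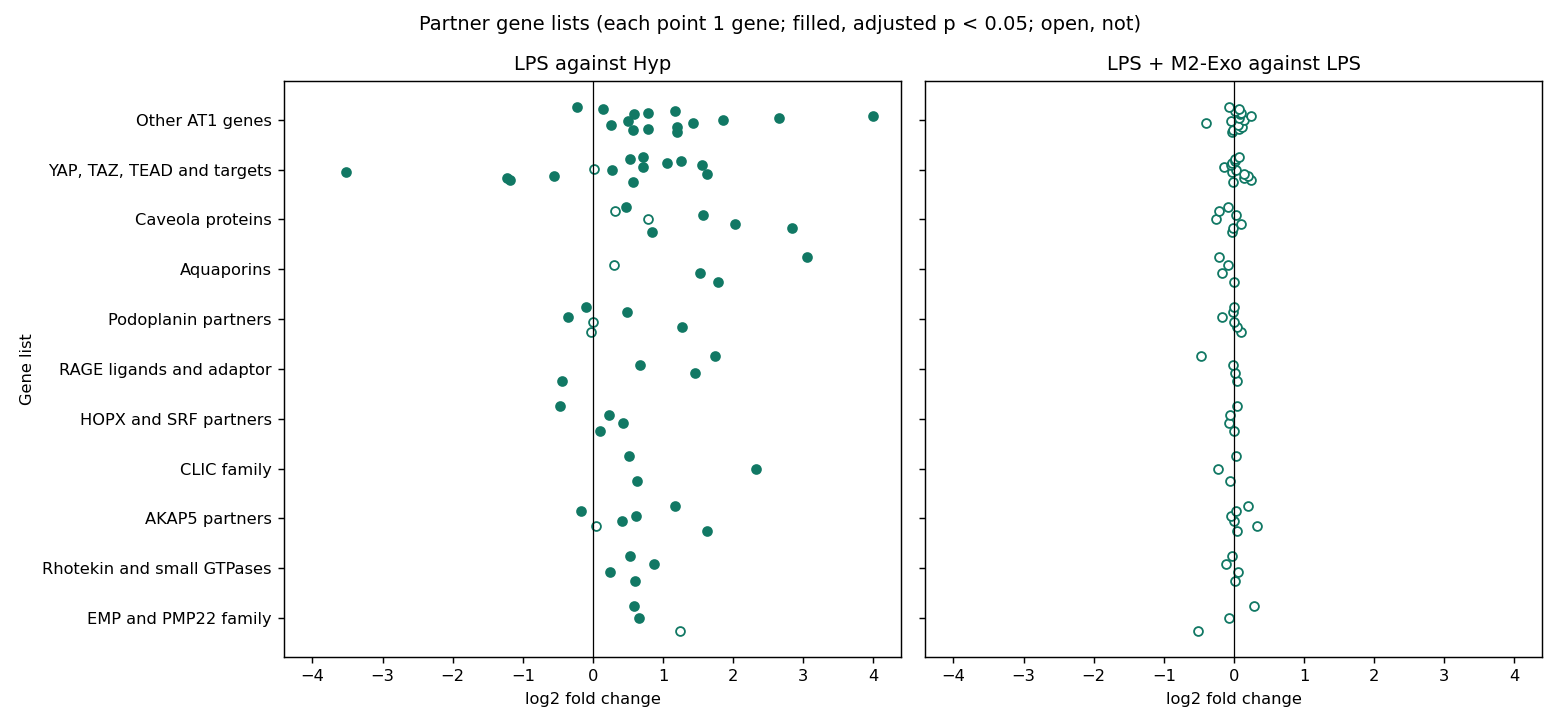
log2 fold change (horizontal axis) of every tested gene in the lists of AT I partners, by list (vertical axis), for LPS against Hyp and for LPS + M2-Exo against LPS. Filled points were called. In the first panel points reach from -3.52 (Klf5) to 4.0 (Lama3), and in the second all are open and lie between -0.52 and 0.33. Klf5 had 3 to 12 counts per LPS library and Lama3 had 3 to 4 per Hyp library.

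Markers of other cell types also moved between the models. The 12 macrophage markers summed to 321 to 358 CPM in LPS and 68.7 to 74.2 CPM in Hyp. Of the 10 tested, 8 were called higher in LPS and 1 lower. Over all genes the shares were 37.8% and 38.0%, which also stand beside the counts of the other cell types in LPS against Hyp. Among the higher were Cd68 (1.26), Csf1r (2.47), Adgre1 (2.59) and Ptprc (2.51). The lower one was Itgax (-3.92), which had at most 3 counts per LPS library. Chil3 was at 0 in all libraries, and Siglecf, which with it marks alveolar macrophages, had at most 1 count. In LPS + M2-Exo the sum was 255 to 291 CPM, and in Hyp + M2-Exo 55.1 to 77.8 CPM. In LPS + M2-Exo against LPS, edgeR called 0 of 9 macrophage markers, where 0.187% of all genes were called. An unadjusted p under 0.05 was reached by 6 of the 9, against 11.1% of all genes. The 6 fibroblast markers summed to 812 to 837 CPM in LPS and 329 to 357 CPM in Hyp, most of it Dcn (1.25). The 3 mesothelial markers, all called higher in LPS (Msln by 0.72), summed to 239 to 267 and 162 to 172 CPM. The 4 airway markers summed to 3.55 to 5.33 and 2.94 to 3.49 CPM. Of the 2 airway markers tested, 1 was called higher in LPS and Foxj1 was not called (0.21). The 8 endothelial markers summed to 24.3 to 27.1 CPM in LPS and 15.6 to 17.8 CPM in Hyp. Of the 5 tested, 1 was called higher, Tek (2.66, with means of 23.3 CPM in LPS and 3.67 CPM in Hyp). The other 4 were called lower, namely Pecam1 (-2.72), Kdr (-2.62), Vwf (-2.26) and Prox1 (-4.86). In the LPS libraries Pecam1 had 3 to 7 counts, Kdr 1 to 5 and Prox1 1 to 2, so the size of those differences is uncertain. Cdh5 had no more than 3 counts in any library, and Emcn and Lyve1 were at 0. The 12 AT II markers summed to 507 to 563 CPM in LPS and 315 to 335 CPM in Hyp, with 6 of 9 called higher and 3 lower, of which Nkx2-1, the lung lineage factor gene, had 2.13 and Sftpb -1.62. The 10 AT I members summed to 1217 to 1263 CPM in LPS and 686 to 783 CPM in Hyp. The part of these other markers in the differences of the members was not tested.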

How the data were processed

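Poly(A) RNA from MLE-12 cells was sequenced in 12 libraries. Per the labels and the study's methods, the authors filtered reads, mapped them with HISAT2 2.0.4 to GRCm38, and the submitters' processing notes also name StringTie 1.3.0 and edgeR. The counting program, strand setting and annotation are not given in the sources used here. The authors deposited raw read counts per gene and FPKM values, which followed from the counts, the library total and a gene length within a relative 0.000103 for genes with at least 20 counts.

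Counts were tested in R 4.3.3 with edgeR 4.0.16 (filterByExpr, TMM, quasi-likelihood F test, Benjamini-Hochberg) in the 6 libraries of each comparison, and in all 12 for the interaction. The script was tested on simulated data. CPM and correlations used log2 CPM with a prior count of 2 where logged. Alternatives were RLE or library size alone, other filters, DESeq2 1.42.0, limma 3.58.1 on log2 FPKM (pseudocounts 1 and 0.1), all 12 libraries, the replicate number as a block and each library left out. Promoter sequences and start sites came from RefSeq (GRCm38.p6).

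The members, lists, tests and alternatives were chosen with earlier results of these data known. All members were named. List genes were named if called in any comparison between 2 groups or if most abundant by mean FPKM in their list, with examples given from longer lists, and the 2 genes most correlated with each member were named if they had a mean of at least 50 counts and no Gm or Rik name. Sftpa1, Sftpd, Chil3, Siglecf, Cldn18, Cdh5, Emcn, Lyve1, Cav3, Pacsin2, S100a8, S100a9, Aqp3, Cd44, Gm15581 and Hopxos were named outside that rule for their levels, lack of a call or position, after their values were seen. No library pair was identical. An item of the partner lists is not reported here.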

Additional observations from a re-analysis of the deposited data

Results flagged for a closer look

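Clic5 was the member whose M2-Exo libraries all lay below the untreated ones in LPS and all above them in hyperoxia. It was picked among the members by that pattern, and neither difference was called. Over all genes, the groups did not overlap for 17.2% in LPS and 15.6% in hyperoxia. The share of all genes with both in opposite directions was not computed. The interaction below rests on the same values that picked the gene. The M2-Exo effect in LPS minus that in hyperoxia was -0.25 on the log2 scale (unadjusted p = 0.00482, adjusted p = 0.313 from edgeR's interaction test), so the difference between the models did not pass the adjustment over all genes. Groups of 3 libraries were not tested for single outlying libraries.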

How the results depend on the processing

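The replicate numbers did not pair the libraries: deviations from the group means of same-numbered libraries correlated between -0.027 and 0.050, below 0.1 in every pair. With the replicate block the members called were 0 for M2-Exo in hyperoxia, 0 for M2-Exo in LPS, 8 for LPS against Hyp (7 without the block, Aqp5 added with an edgeR adjusted p = 0.0332), 9 with M2-Exo and 0 for the interaction. Of all genes, the block called 10259 of 13805 tested in LPS against Hyp and 9864 of 13660 with M2-Exo. It called 8 of 13815 for M2-Exo in hyperoxia, 6 of 13353 in LPS and 3 of 14187 for the interaction. With an unadjusted p in place of the adjusted one, 1 member passed for M2-Exo in hyperoxia, 3 in LPS and 2 for the interaction. The shares of all genes were 8.48%, 11.1% and 9.78%. With 1 library left out, members called ranged from 0 to 1 for M2-Exo in hyperoxia and from 0 to 1 for the interaction, the 1 being Cav1 without Hyp replicate 2, and were 7 in every case for LPS against Hyp and 8 to 10 with M2-Exo. Without Hyp replicate 2, 15 of 13992 genes were called for M2-Exo in hyperoxia and 9 of 14373 for the interaction. In LPS against Hyp the fits called 10046 to 10301 of the 13952 to 14201 genes tested. With M2-Exo they called 9603 to 9913 of 13886 to 14050.

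Of 840 member log2 fold changes recomputed under an alternative, 804 kept direction and side of the threshold, 23 changed sign, 9 gained and 4 lost a call. No value that changed sign was called, and the largest was 0.35 in size. For M2-Exo in hyperoxia, Emp2 (-0.00084) became 0.0013 with RLE, 0.0014 with DESeq2 and 0.0048 with all 12 libraries. Over the libraries left out in turn, the values that changed sign ranged, for M2-Exo in hyperoxia, from -0.13 to 0.0010 for Pdpn, -0.18 to 0.14 for Hopx, -0.090 to 0.065 for Cav2, -0.35 to 0.26 for Akap5, -0.13 to 0.0023 for Rtkn2 and -0.031 to 0.021 for Emp2. For M2-Exo in LPS they ranged from -0.16 to 0.22 for Aqp5 and -0.16 to 0.011 for Ager, for LPS against Hyp from -0.35 to 0.089 for Aqp5, and for the interaction from -0.40 to 0.057 for Aqp5, -0.019 to 0.16 for Ager and -0.078 to 0.24 for Hopx.

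Other calls that changed belonged to LPS + M2-Exo against Hyp + M2-Exo. Aqp5 was also called with library size alone (-0.39), which moved the median of all genes from -0.0083 to -0.099, without a filter on low counts (-0.32), with limma on log2(FPKM + 1) (-0.39) and without Hyp + M2-Exo replicate 2 (-0.40). Akap5 was not called by limma without a filter (0.17). Over all genes, M2-Exo calls in hyperoxia numbered 14 in the 6-library fit, 37 with DESeq2, 8 with the block, 8 and 4 with limma (pseudocount 0.1; no filter) and 2 with all 12 libraries. In LPS they numbered 25, 125 with DESeq2, 6 with the block, 13 and 9 with limma (pseudocount 1; 0.1), 12 with all 12 libraries and 39 without LPS replicate 1. For the interaction they numbered 5, 67 with DESeq2, 13 without a filter, 11 with limma without a filter, 3 with the block and up to 34 with a library left out (Hyp + M2-Exo replicate 1). The cause of these changes was not tested. With 3 libraries a group, the widest interval of a member's M2-Exo effect spanned from -2.68 to -0.59 (Cav1, whose Hyp libraries were split), while Akap5 rested on 24 to 137 counts per library.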
